A study of Homo sapiens with 6 samples.

Results

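The genes described here were chosen by name: HSF1, the HSP70 genes HSPA1A, HSPA1B and HSPA8, the HSP90 genes HSP90AA1 and HSP90AB1, the small heat shock protein gene HSPB1, the J-protein gene DNAJB1, the HSP110 gene HSPH1 and the HSP60 gene HSPD1. They are 10 of the 58735 genes in the count table, each with 1 row, and all 10 were among the 15242 genes with enough counts to be tested. All act in the cytosol or nucleus except HSPD1, whose protein works in the mitochondrial matrix. RNA came from MDA-MB-231, a triple-negative breast cancer (TNBC) cell line, in 2 groups: the parent cells, labelled WT, and Adriamycin (ADR) resistant cells derived from them, called ADRr. Adriamycin, or doxorubicin, intercalates into DNA and traps topoisomerase II. ADRr cells had survived stepwise exposure to rising ADR doses, and clones of single cells were then picked after limiting dilution, so the group may stand for 1 clone. Whether ADR was in the medium at harvest is not given in the sources used here. Both groups grew in DMEM with serum, with 3 libraries each. The series text speaks of 3 time points, which no sample label names, and libraries 1 to 3 of each group were treated here as replicates. Nothing says that these came from separate cultures, so each SD, SE and p-value rests only on the spread between libraries. That spread may be technical or, if the libraries are time points, may include time. The fitted SE and p-value of a gene also draw on the spread of other genes, so they do not measure its own spread alone.

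Heat shock proteins are chaperones that bind unfolded or newly made proteins and help them to fold, to be handed on or to be degraded. HSP70 proteins hold short unfolded stretches and are switched by J-domain proteins and by nucleotide exchange factors such as HSP110, and clients then pass to the HSP90 dimer. In stressed cells the transcription factor HSF1 forms trimers, binds repeated GAA and TTC units called heat shock elements, and raises the inducible chaperone genes, while tumor cells often express several of them at a high level without heat.

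Library totals ranged from 15983985 to 18272314 counts. The mesenchymal basal markers VIM, CD44, EGFR and AXL summed to 3470 to 3550 CPM (counts scaled to library size) in parent libraries and 4230 to 4280 in ADRr libraries. The sum hides a split. CD44 and EGFR were higher in ADRr cells (log2 fold change 0.80 and 1.39), while VIM and AXL were lower (-0.56 and -0.62). The estrogen receptor gene ESR1 had at most 0.0547 CPM and PGR had 0 counts. CDH1 and GATA3, also listed as low in this line, had 5.91 to 16.2 and 25.1 to 31.8 CPM over all libraries. CDH1 was lower in ADRr cells (log2 fold change -1.07). Across 6 leukocyte markers the summed level was 0.125 to 0.238 CPM in parent libraries and 0.0617 to 0.438 in ADRr libraries, with TYROBP at 0 in every library. In bulk RNA, fewer cells of a type and less RNA per cell cannot be told apart.

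Several of these genes carry heat shock elements near an annotated start. The sequences below show them for the HSP70 and HSP90 genes, whose RNA fell, and for HSPD1 and DNAJB1. HSPD1 has the longest run of exact units among those shown, and the RNA of DNAJB1 did not pass the test. The 250 bases before each RefSeq start site (GRCh38.p14) were searched on both strands for the 2-unit element, GAANNTTC or TTCNNGAA, and for the element of 3 alternating units with the same spacing, which contains 2 overlapping 2-unit elements. Entries were found for 9 members, all but HSF1, with 15 start sites in all. A 3-unit element lay before 1 start site each of HSPA8, HSP90AA1, HSP90AB1 and HSPD1, which is 4 members. Of all 35116 windows of this length, 0.441% held one. A 2-unit element lay before 1 start site each of 8 members, against 11.6% of all windows, and HSPH1 had no exact one. Members had 1 to 3 windows each, so a count of members is not a share of windows. Only exact units were searched, so an element with an altered letter was not counted or marked. In the lines that follow, capitals mark the elements and each sequence runs 5′ to 3′ on the strand of its gene.
HSPA8 site near the start: ggggcgggccccTTCTGGAAGGTTCtaaga
HSPA8 distal site: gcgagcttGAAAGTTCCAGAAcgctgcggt
HSP90AA1 site: tggggagggttcTTCCGGAAGGTTCgggag
HSP90AB1 site pair: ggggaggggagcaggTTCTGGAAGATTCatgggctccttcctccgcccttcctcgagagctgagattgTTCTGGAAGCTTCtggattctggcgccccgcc
HSPD1 site: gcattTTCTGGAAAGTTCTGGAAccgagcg
DNAJB1 site pair: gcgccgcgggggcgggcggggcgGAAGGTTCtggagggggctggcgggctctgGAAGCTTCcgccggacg
HSPA1A upstream: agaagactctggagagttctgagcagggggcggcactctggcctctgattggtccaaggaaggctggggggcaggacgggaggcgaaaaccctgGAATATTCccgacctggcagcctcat
HSPA1B upstream: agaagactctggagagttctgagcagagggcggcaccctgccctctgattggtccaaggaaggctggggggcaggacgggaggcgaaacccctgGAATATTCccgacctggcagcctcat

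The HSPA8 sites lie on the minus strand at chr11:123062174-123062203 and chr11:123062345-123062374, the HSP90AA1 site on the minus strand at chr14:102087115-102087144 and the HSPD1 site on the minus strand at chr2:197500061-197500090. These 4 stretches of 30 bases fall inside exons of some GENCODE 29 transcripts. The HSP90AB1 pair at chr6:44247763-44247862 (plus strand), the DNAJB1 pair at chr19:14518428-14518497 (minus strand) and the stretches of HSPA1A at chr6:31815343-31815462 and HSPA1B at chr6:31827539-31827658 (both plus strand) touch no exon of that annotation. The HSPA1A and HSPA1B stretches were identical at 116 of 120 bases. A match is a description of letters and says nothing of whether HSF1 bound there in these cells. The same windows held a TATAAA box in HSPA1A and HSPA1B and in no other member, against 10.7% of all windows.

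Of the 10 heat shock genes, 9 were lower in ADRr cells and 0 were higher by edgeR's quasi-likelihood test. A gene counts as called here if its Benjamini-Hochberg adjusted p did not exceed 0.05 and the groups differed 1.2-fold or more. Among all tested genes 29.6% were called lower and 29.2% higher. The members were chosen with earlier results of these data known, so this contrast is a description only. The median log2 fold change of the members was -0.75, beside -0.0061 for all tested genes. Every ADRr library lay below every parent library for these 9 genes, an arrangement found in 34.7% of tested genes, and above them for DNAJB1, as for 34.5% of tested genes. Together the members held 0.749%, 0.8003% and 0.737% of the counts in parent libraries 1 to 3, and 0.442%, 0.4299% and 0.438% in ADRr libraries 1 to 3. The mean share was 0.762 ± 0.0336% in parent and 0.437 ± 0.00617% in ADRr cells (SD, n = 3 each). The difference of -0.33 percentage points gave p = 0.1 in a two-sided exact permutation test, the smallest p that 3 libraries against 3 allow.

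**Figure D1:**
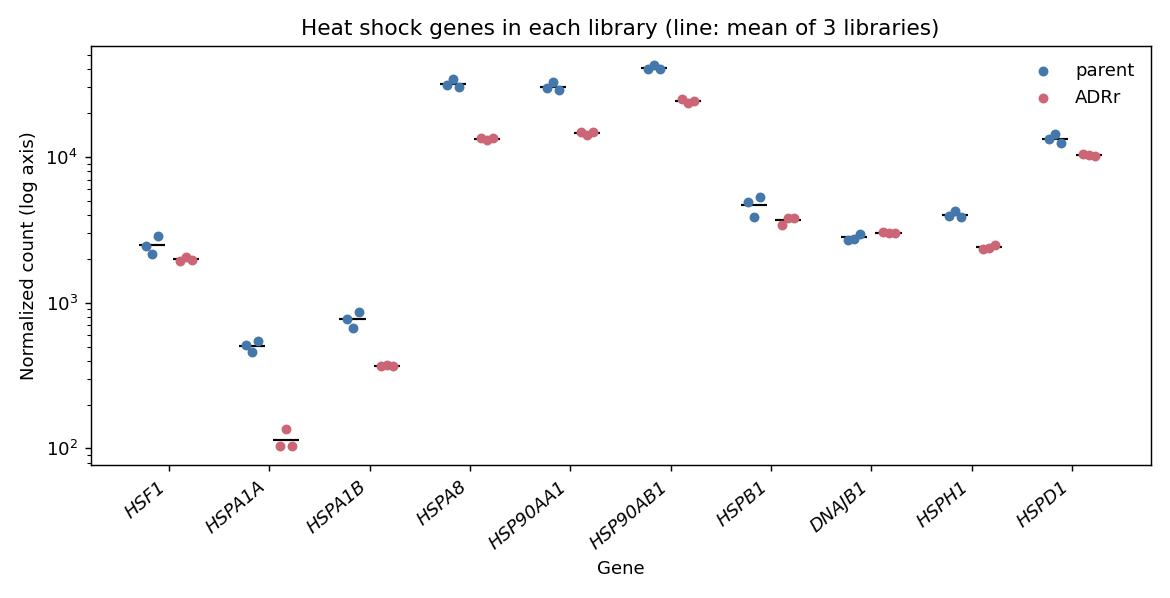
Normalized counts (log axis) of the 10 heat shock genes in each of the 3 parent (blue) and 3 ADRr (red) libraries, with a line at each group's mean. For 9 genes the red points lie below the blue points, from a wide gap in HSPA1A to a narrow one in HSPB1 and HSF1, and for DNAJB1 they lie slightly above.

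HSF1, the transcription factor itself (ENSG00000185122, GRCh38, chromosome 8, 144291591 to 144314722, plus strand), was modestly lower. Its normalized counts were 2442, 2155 and 2865 in parent libraries 1 to 3 and 1945, 2045 and 1967 in ADRr libraries 1 to 3. The groups did not overlap, but parent library 2 came close to the ADRr libraries. Its mean of 2487 ± 357 normalized counts fell to 1986 ± 52.5, with a log2 fold change of -0.33 ± 0.074 SE and an adjusted p of 5.1e-04. Without parent replicate 3 it was -0.22, which is under the fold change threshold. Over 14 alternatives the adjusted p ran from 1.3e-07 (edgeR without parent replicate 2) to 0.0272 (limma-trend on log2(FPKM + 1)). HSF1 overlaps DGAT1 on the opposite strand, whose summed counts over the 6 libraries were 29.3% of those of HSF1, and the strand setting of the counting is not given in the sources used here.

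The heat-inducible HSP70 genes HSPA1A and HSPA1B, intronless duplicates on the short arm of chromosome 6, both fell, HSPA1A by more than any other member. HSPA1A (ENSG00000204389, GRCh38, chromosome 6, 31815464 to 31817946, plus strand) had 516, 459.7 and 549 normalized counts in parent libraries and 104, 136 and 104 in ADRr libraries. The lowest parent library was thus far above the highest ADRr library. Its mean went from 508 ± 45.2 to 114 ± 18.7, 4.46-fold lower (log2 fold change -2.16 ± 0.12 SE, adjusted p = 3.0e-13). This was the 244th lowest log2 fold change of the 15242 tested genes. HSPA1B (ENSG00000204388, chromosome 6, 31827735 to 31830255, plus strand) had 771, 667 and 869.8 normalized counts in parent libraries and 365, 373 and 369.8 in ADRr libraries. The ADRr libraries were nearly level with one another, below all parent libraries. Its log2 fold change was -1.06 ± 0.092 SE, at an adjusted p of 8.5e-10, or 2.09-fold lower.

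Reads from the duplicates are hard to assign. Of the 150-base windows in HSPA1A transcripts, a length equal to one read, 63.2% also occur in HSPA1B, and 70% of those in HSPA1B occur in another gene. How reads that map to both were counted is not given in the sources used here. The split between the duplicates, and their level beside other genes, are therefore uncertain. Summed into 1 gene, they had 1278 ± 146 normalized counts in parent and 484 ± 21.6 in ADRr cells, with a log2 fold change of -1.40 ± 0.082 SE and an adjusted p of 9.3e-13. The ratio of HSPA1A to HSPA1B in FPKM, which divides by gene length, was 0.679, 0.699 and 0.641 in parent libraries and 0.288, 0.371 and 0.285 in ADRr libraries. The ratio was chosen after its values were seen, and the log2 difference of -1.11 gave p = 0.1 in the two-sided exact permutation test (0.133 adjusted over 4 such tests by Benjamini-Hochberg).

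HSPA8 encodes HSC70, the constitutive HSP70 that folds new proteins and strips clathrin from vesicles. Its normalized counts (ENSG00000109971, chromosome 11, 123057489 to 123063230, minus strand) were 31056, 34306 and 30356 in parent libraries and 13398, 13106 and 13592 in ADRr libraries. The groups were far apart, and the ADRr libraries differed little from one another. The mean fell from 31906 ± 2107 to 13365 ± 245, 2.39-fold lower (log2 fold change -1.26 ± 0.048 SE, adjusted p = 5.4e-16). Within libraries, the FPKM of HSPA1A plus HSPA1B over that of HSPA8 was 0.0802, 0.0636 and 0.0905 in parent cells and 0.0676, 0.07495 and 0.0672 in ADRr cells. The groups overlapped, with a log2 difference of -0.15 and a two-sided exact permutation p of 0.4 (0.4 adjusted). With HSPA1A alone in the numerator the log2 difference was -0.91, and with HSPA1B alone it was 0.20, so the sign depends on which duplicate is used.

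Partners that drive the HSP70 cycle did not move together. DNAJB1, the J protein HSP40 that hands clients to HSP70 and is itself strongly heat-inducible, had 2714, 2751 and 2966 normalized counts in parent libraries and 3068, 3000.4 and 2991 in ADRr libraries. Parent library 3 came close to the lowest ADRr library, without overlap. Its log2 fold change of 0.10 ± 0.053 SE, at an adjusted p of 0.091 by edgeR, did not pass the test, and it lay between 0.074 and 0.14 over 15 alternatives. DNAJB1 (ENSG00000132002, chromosome 19, 14514770 to 14529770, minus strand) overlaps TECR on the opposite strand, whose summed counts were 59.6% of those of DNAJB1. HSPH1, the HSP110 protein that exchanges nucleotide on HSP70 and helps to pull aggregates apart, had 3937, 4234 and 3844 normalized counts in parent libraries and 2329.6, 2366 and 2481 in ADRr libraries. The groups were well apart, with means of 4005 ± 204 and 2392 ± 78.7. HSPH1 (ENSG00000120694, chromosome 13, 31134974 to 31162388, minus strand) had a log2 fold change of -0.74 ± 0.054 SE and an adjusted p of 4.2e-11.

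Both cytosolic HSP90 genes fell, and the estimate was larger for the inducible one. HSP90AA1, the stress-inducible alpha form (ENSG00000080824, chromosome 14, 102080738 to 102139699, minus strand), had 29729, 32769 and 28767 normalized counts in parent libraries and 14846, 14228 and 14947 in ADRr libraries. Each ADRr library held about as little as the next, and all were far below the parent libraries. The mean fell from 30421 ± 2089 to 14673.5 ± 389, 2.07-fold lower (log2 fold change -1.05 ± 0.049 SE, adjusted p = 1.7e-14). HSP90AB1, the constitutive beta form (ENSG00000096384, chromosome 6, 44246166 to 44253888, plus strand), had 40037, 42784.5 and 40114 normalized counts in parent libraries and 24994, 23609.9 and 24223.5 in ADRr libraries. Again the groups were far apart, and the mean of 40978 ± 1565 fell to 24276 ± 694. Its log2 fold change was -0.76 ± 0.044 SE, at an adjusted p of 7.2e-13, or 1.69-fold lower. The FPKM ratio of HSP90AA1 to HSP90AB1 was 0.422, 0.435 and 0.407 in parent libraries and 0.337, 0.342 and 0.3504 in ADRr libraries. All ADRr ratios were below all parent ratios, a log2 difference of -0.29 with p = 0.1 in the two-sided exact permutation test, the smallest possible (0.133 adjusted). The 3-unit elements shown above lie before starts of both genes.

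**Figure D2:**
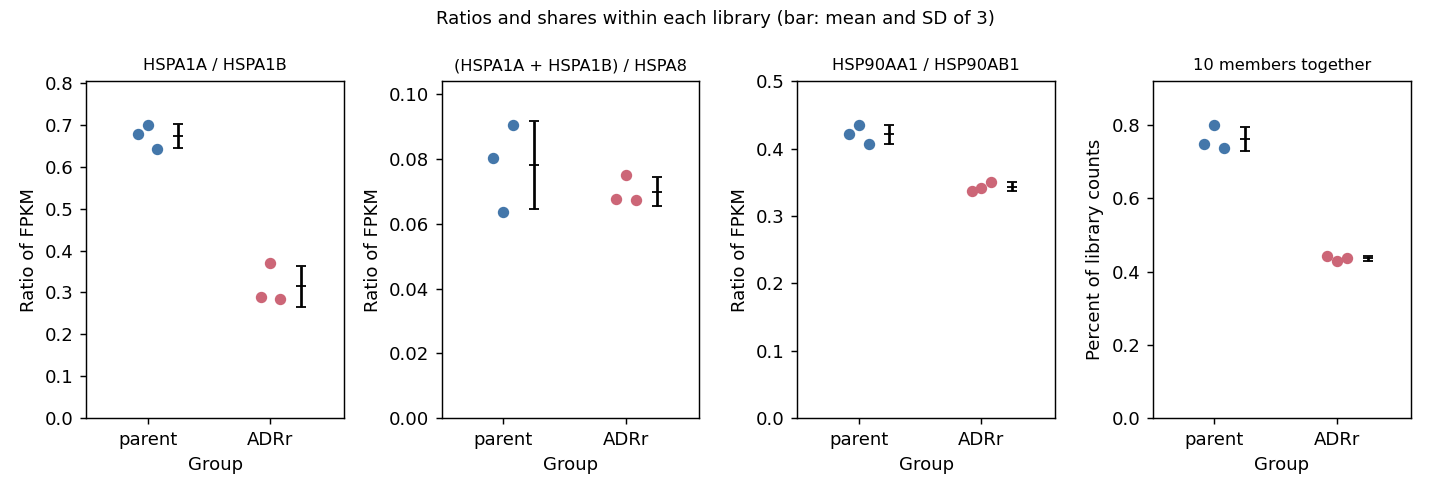
FPKM ratios of HSPA1A to HSPA1B, of HSPA1A plus HSPA1B to HSPA8 and of HSP90AA1 to HSP90AB1, and the percent of library counts held by the 10 members, in each of 3 parent (blue) and 3 ADRr (red) libraries, with the group mean and SD beside them. The groups are apart in every panel except that of HSPA1A plus HSPA1B to HSPA8, where they overlap.

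HSPB1, or HSP27, is a small chaperone that holds unfolding proteins without ATP and also binds actin. It had 4874, 3869 and 5296 normalized counts in parent libraries and 3434, 3806 and 3829 in ADRr libraries. Parent library 2 stood only just above the highest ADRr library, so the groups barely separate. The mean went from 4679.6 ± 733 to 3689.9 ± 222, a log2 fold change of -0.34 ± 0.078 SE and an adjusted p of 5.0e-04, for HSPB1 (ENSG00000106211, chromosome 7, 76302544 to 76304295, plus strand). Leaving out parent replicate 3 gave -0.25, under the fold change threshold.

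HSPD1, the mitochondrial chaperonin HSP60, and HSPE1, its lid HSP10, are neighbours on chromosome 2 and are transcribed away from each other. HSPD1 (ENSG00000144381, chromosome 2, 197486581 to 197516737, minus strand) had 13220.5, 14379.8 and 12473 normalized counts in parent libraries and 10494, 10260.2 and 10220.1 in ADRr libraries. All ADRr libraries were below the parent libraries by more than their own spread, and the mean went from 13358 ± 961 to 10325 ± 148. Its log2 fold change was -0.37 ± 0.051 SE, at an adjusted p of 9.9e-07. HSPE1 had 739, 765 and 823 normalized counts in parent libraries and 438, 432 and 297 in ADRr libraries, with a log2 fold change of -0.999 ± 0.11 SE and an adjusted p of 2.9e-08. The difference between the log2 fold changes of this pair was not tested. In the annotation HSPE1 overlaps HSPD1 on the opposite strand, with summed counts that were 4.89% of those of HSPD1. HSPE1-MOB4, annotated on the same strand as HSPE1, had 0 counts. How reads that fall in overlapping genes were counted is not given in the sources used here, so the level of HSPE1 is uncertain. If reads that fall in both HSPE1 and HSPE1-MOB4 were not counted, this level is too low. The log2 fold change of HSPE1 would then rest on its remaining reads. Annotated pseudogenes of HSPD1 held 1.3 to 1.87% of the counts that HSPD1 and they had together, the largest such share among the 6 members with pseudogene rows. With pseudogene counts added, 9 members were again called lower.

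**Figure D3:**
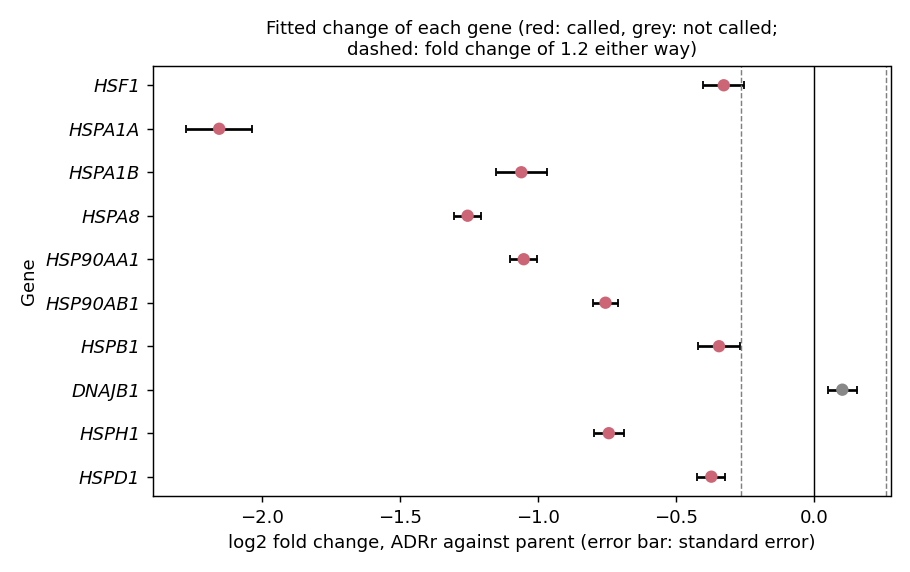
Fitted log2 fold change of each heat shock gene (ADRr against parent), with its standard error as the bar and dashed lines at a fold change of 1.2 either way. The changes run from -2.16 for HSPA1A to 0.10 for DNAJB1, and HSF1 and HSPB1 lie closest to the threshold among those called.

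Levels can be compared between genes only per length, as FPKM, and HSP90AB1 led and HSPA1A came last in both groups. In parent cells the mean FPKM was 786 ± 29.6 for HSP90AB1, 376 ± 24.8 for HSPA8 and 331 ± 22.8 for HSP90AA1 (SD, n = 3), which placed HSP90AB1 26th, HSPA8 51st and HSP90AA1 65th among tested genes. HSPD1 followed at 179.9 ± 13.0 FPKM and HSPB1 at 164 ± 25.6 FPKM, whose libraries overlapped. DNAJB1, with 43.7 ± 2.01 FPKM, stood apart between the abundant and the scarcer genes. HSPH1 at 27.3 ± 1.39 and HSF1 at 26.8 ± 3.81 FPKM overlapped as well. HSPA1B at 17.4 ± 2.28 and HSPA1A at 11.7 ± 1.03 FPKM were lowest. If reads that map to both duplicates were not counted, these values are too low. The places and ranks of HSPA1A and HSPA1B among other genes are therefore uncertain in both groups. In ADRr cells HSP90AB1 was still first at 467 ± 14.1 FPKM. HSP90AA1 at 160.4 ± 4.69 and HSPA8 at 158 ± 3.34 FPKM now overlapped. HSPD1 had 139 ± 2.03 FPKM and HSPB1 129.5 ± 7.77 FPKM, which no longer overlapped, and DNAJB1 had 47.2 ± 0.667 FPKM. HSF1 at 21.5 ± 0.518 FPKM was above HSPH1 at 16.4 ± 0.571 FPKM. HSPA1B had 8.4 ± 0.0737 FPKM. HSPA1A, at 2.64 ± 0.424 FPKM, moved from rank 4121 to rank 9443 of the tested genes.

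The rest of the chaperone network held genes called in both directions, as did the tested genes as a whole. In 9 lists holding 106 further genes, 97 were tested, of which 21 were called higher (21.6%, beside 29.2% of all tested genes) and 32 lower (33%, beside 29.6%), and 44 were not called. Their median log2 fold change was -0.065, beside -0.0061 for all tested genes. HSPA14 has 2 rows in the table and was left out, and HSF5 and 7 small heat shock protein genes, CRYAB and HSPB6 among them, had too few counts to be tested.

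Among the heat shock factors and their partners, 1 of 4 tested genes was called higher (25%, beside 29.2% of all tested genes) and 2 lower (50%, beside 29.6%). HSBP1, which binds and restrains HSF1 trimers, fell by 0.38 on the log2 scale (SE 0.065). HSF4 changed by -0.32 (SE 0.13, adjusted p = 0.036 by edgeR), a call that 9 of 14 alternatives did not keep, with adjusted p from 0.013 to 0.14. HSF2, a partner of HSF1, did not pass the test (log2 fold change 0.19, adjusted p = 0.062 by edgeR). The gene called higher, HSF2BP, is scarce, at 26.9 ± 3.74 normalized counts in parent and 45.6 ± 5.97 in ADRr cells, and no gene of the list was called higher under DESeq2 or without parent replicate 2, ADRr replicate 1 or ADRr replicate 3.

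Of 7 other HSP70 and HSP110 genes, 2 were called higher (28.6%, beside 29.2% of all tested genes) and 3 lower (42.9%, beside 29.6%). HSPA4L, an HSP110 relative of HSPH1, fell by 1.32 on the log2 scale (SE 0.083), whereas its relative HSPA4 rose by 0.40 (SE 0.0503). HSPA12A, a distant HSP70, rose by 1.16 (SE 0.086). HSPA6, an HSP70 gene that is nearly silent without heat, had 19, 36 and 14 counts in parent libraries and 1, 10 and 3 in ADRr libraries. It was called lower (log2 fold change -2.35 ± 0.57 SE, adjusted p = 0.0011 by edgeR), and at these counts the size is uncertain, from -3.57 to -1.83 over 11 alternatives. HSPA1L, beside HSPA1A on chromosome 6, had 17, 31 and 31 counts in parent and 18, 22 and 26 in ADRr libraries and was not called (adjusted p = 0.40 by edgeR).

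J proteins other than DNAJB1 were called lower in 6 of 17 cases (35.3%, beside 29.6% of all tested genes) and higher in 0 (beside 29.2%). DNAJA1, an abundant J protein partner of HSPA8, fell from 5219 ± 299 to 1618 ± 34.9 normalized counts (log2 fold change -1.69 ± 0.056 SE). DNAJB5 fell by 1.17 (SE 0.13). Among 11 genes for nucleotide exchange and handover from HSP70, 3 rose and 3 fell, which is 27.3% each way and near the 29.2% and 29.6% of all tested genes. BAG1, an exchange factor that links HSP70 to the proteasome, fell by 1.37 (SE 0.078) and HSPBP1 by 0.52 (SE 0.082). BAG3, a heat-inducible exchange factor that sends clients to autophagy, rose by 0.42 (SE 0.062), and BAG5 rose by 0.30 (SE 0.0698), or 0.24 without parent replicate 3, under the threshold. STIP1, or HOP, which bridges HSP70 and HSP90, changed by -0.17 (SE 0.046, adjusted p = 0.0020 by edgeR), under the fold change threshold.

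For the co-chaperones of HSP90, 3 of 21 were called higher (14.3%, beside 29.2% of all tested genes) and 6 lower (28.6%, beside 29.6%). UNC45A, a myosin chaperone that works with HSP90, fell by 1.37 (SE 0.067) and RUVBL2, an ATPase of the R2TP complex, by 0.72 (SE 0.054). TSC1 rose by 0.46 (SE 0.065) and CDC37L1 by 0.67 (SE 0.15). Most of the small heat shock proteins were too low to test, but HSPB8, the partner of BAG3 in chaperone-assisted autophagy, rose from 531 ± 7.41 to 869.7 ± 15.4 normalized counts (log2 fold change 0.71 ± 0.072 SE). Its direction was opposite to that of HSPB1.

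The chaperonin CCT, which folds actin and tubulin, and prefoldin, which delivers them, had 14 tested genes with 4 called higher (28.6%, beside 29.2% of all tested genes) and 7 lower (50%, beside 29.6%). PFDN2 rose from 1074 ± 92.9 to 3212 ± 163 normalized counts (log2 fold change 1.58 ± 0.065 SE), while PFDN6 fell by 0.98 (SE 0.086) and PFDN5 by 0.76 (SE 0.068). CCT7 rose by 0.87 (SE 0.047). Subunits of the same complex thus changed in opposite directions. Of 12 other mitochondrial chaperones and proteases, 4 were called higher and 3 lower, and these shares of 33.3% and 25% lie near the 29.2% and 29.6% of all tested genes. HSPA9, the mitochondrial HSP70 mortalin, had 8416, 8828 and 8467 normalized counts in parent libraries and 20965, 20589.6 and 21345 in ADRr libraries, a log2 fold change of 1.29 ± 0.045 (SE) where cytosolic HSPA8 had -1.26. HSCB, a J protein for iron-sulfur cluster assembly, rose by 1.37 (SE 0.17), and CLPB, a disaggregase, fell by 0.48 (SE 0.081) along with HSPE1.

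Other genes known to rise with heat were called higher in 3 of 10 cases (30%, beside 29.2% of all tested genes) and lower in 2 (20%, beside 29.6%). ATF3, a stress transcription factor, rose from 242 ± 30.9 to 1052 ± 55.1 normalized counts (log2 fold change 2.12 ± 0.091 SE), and HMOX1, which degrades heme and responds to oxidants, rose by 1.07 (SE 0.088). SERPINH1, the collagen chaperone HSP47 of the endoplasmic reticulum, fell by 0.72 (SE 0.053) and MRPL18 by 0.47 (SE 0.078). ATF3 and HMOX1 also respond to stresses other than heat.

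**Figure D4:**
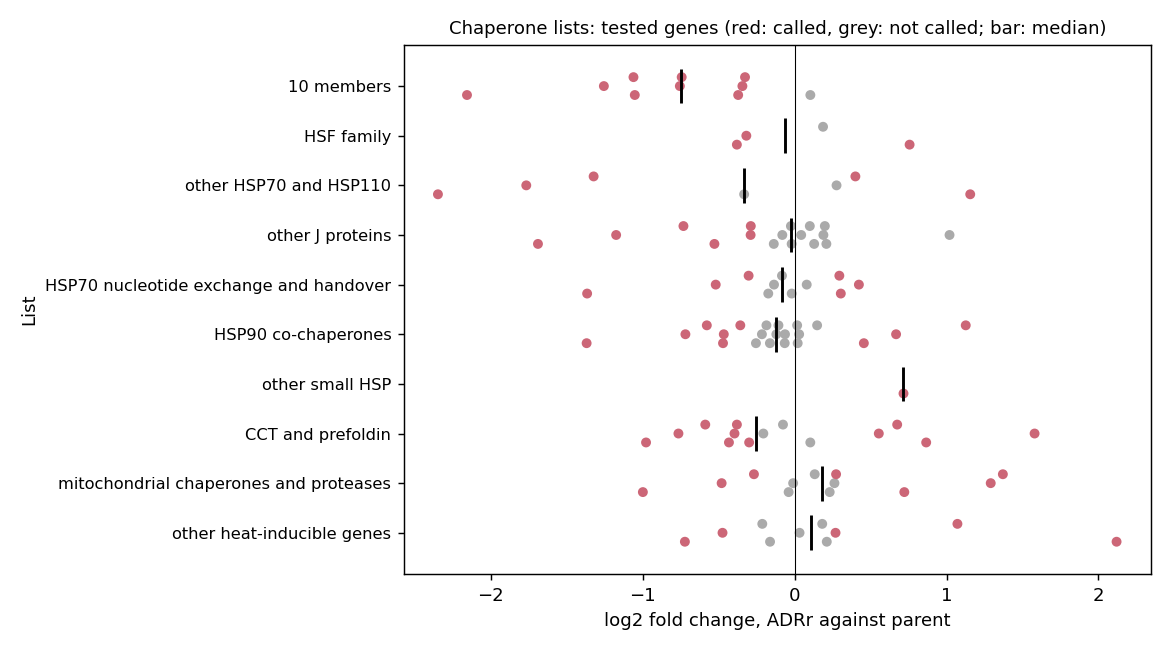
Log2 fold change (ADRr against parent) of every tested gene in the 10 members and in 9 chaperone lists, with called genes in red, others in grey and a bar at each list's median. The members lie to the left of 0 apart from DNAJB1, while the other lists with more than 1 tested gene hold genes on both sides.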

How the data were processed

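Polyadenylated RNA of 6 libraries was sequenced as read pairs. According to the submitters' processing notes the authors used fastp, HISAT2 2.0.5 on GRCh38, featureCounts 1.5.0-p3 and DESeq2 1.20.0. The authors deposited unnormalized whole-number counts for each gene, together with FPKM, which accounts for gene length and depth. Strandedness and the handling of multi-mapped reads are not given in the sources used here. Groups and replicate numbers came from sample titles.

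The tests used edgeR 4.0.16 under R 4.3.3. Genes kept by filterByExpr (15242; 43493 were not tested) were TMM-normalized, fitted with the quasi-likelihood test and adjusted by Benjamini-Hochberg over all tested genes. Normalized counts are scaled to the mean effective library size of 17126283. A call needed an adjusted p no higher than 0.05 and a 1.2-fold difference (0.263 on the log2 scale). Total counts, from 15983985 to 18272314, limit precision mainly for genes such as HSPA6. Each SE was the absolute log2 fold change divided by the square root of the F of this test, whose variance estimate is moderated across genes. Over all tested genes the SE of the log2 difference had a median of 0.0964. FPKM was used to compare levels between genes and for ratios within a library, tested with exact permutation over the 6 libraries. Transcripts and exons came from GENCODE 29, and start sites and sequences from RefSeq. The scripts were tested on simulated data.

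The genes named outside the members were, in each list, the called genes that rose most and fell most, 2 each way, provided that the higher group averaged 100 normalized counts or more, plus HSF2, HSPE1, HSPA6, HSPA1L, BAG3 and STIP1. Members, lists and tests were chosen with earlier results of these data known. The ratio of HSPA1A to HSPA1B was added, and HSF2BP, CRYAB, HSPB6 and HSF5 were named, after their values were seen.

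Alternatives were DESeq2 size factors or library size alone, DESeq2 1.42.0, no filter, a minimum of 10 counts per library, a block for the replicate number, limma-trend (limma 3.58.1) on log2(FPKM + 1) or log2(FPKM + 0.1) at a mean FPKM of at least 0.5, each library left out, other thresholds, and sums over pseudogenes or duplicates.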

Additional observations from a re-analysis of the deposited data

How the results depend on the processing

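Of 276 values recomputed for the members, the counts of calls and the within-library ratios, 266 kept their direction and their side of the threshold or stayed within the limits set for them. The limits for counts were wide. A drop from 9 to 7 members called lower stayed within them, as did a rise from 21 to 30 network genes called higher by adjusted p alone. For ratios and shares the limit was the pooled SD of the groups. Requiring an absolute log2 fold change of 1.2 gave 1114 genes higher and 972 lower among all tested, 2 members lower (HSPA1A and HSPA8), and 4 network genes higher and 6 lower. Without parent replicate 3 the log2 fold change was -0.22 for HSF1 and -0.25 for HSPB1, so that 7 members were called lower. Over the fits that each left out a library, HSF1 ranged from -0.43 to -0.22, HSPB1 from -0.47 to -0.25 and the number of members called lower from 7 to 9. The log2 difference of the ratio over HSPA8 was -0.91 with HSPA1A alone and reversed to 0.20 with HSPA1B alone. As a share of summed FPKM the members differed by -0.30 percentage points. Same-numbered libraries of the groups did not deviate together (correlation -0.0457 to 0.00735 across genes), so the numbers were not taken as pairs. With the replicate block 4406 genes were called higher and 4464 lower, 9 members lower and 0 higher, and 21 network genes higher and 31 lower. DNAJB1 was called in none of its 15 alternatives. Among the other named genes, HSF4 lost its call in 9 alternatives and BAG5 in 1, and the list of HSF2BP, which was its only gene called higher, held 0 genes called higher under DESeq2, at an absolute log2 fold change of 1.2 and without parent replicate 2, ADRr replicate 1 or ADRr replicate 3. Counts near 10, as for HSPA6, limit what these depths can show.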
